A study of Mus musculus with 7 samples.

Results

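Chromatin in the mouse ovary is written and erased by families of histone modifying enzymes, and the 48 genes described here are a panel of them. They are 20 methyltransferases with their core subunits, 12 demethylases, 14 deacetylases and 2 corepressor genes, Trim28 and Zfp57. They were listed by name. All 48 were found among the 55487 gene identifiers of the count files, and all 48 were among the 18779 genes with enough reads to be tested. Whole ovaries had been taken at diestrus on postnatal day 60 from C57BL/6J females, with a library from each of 3 CNTR mice and 4 PAMH F3 mice. CNTR mice were daughters of dams given PBS from E16.5 to E18.5. PAMH F3 mice were the third generation after an F0 dam received human anti-Müllerian hormone (AMH) at 0.12 mg/kg/d on the same days, by way of matings between unrelated PAMH F1 mice and then unrelated PAMH F2 mice, with no later treatment. The injections are subcutaneous in the sample labels and intraperitoneal in the study's methods. CNTR mice were F1 animals, so that lineage and generation cannot be told apart, and the labels do not say which mice were littermates. The study treated these mice as a model of polycystic ovary syndrome and asked whether ovarian transcripts differed in the third generation. For the chromatin enzymes the comparison asks whether their own transcripts did.

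Histone methyltransferases place methyl groups on lysines of histone tails, demethylases remove them, and deacetylases remove acetyl groups, which tightens the hold of histones on DNA. The same chemical mark can go with activity or silence according to the residue: methylation of H3K4, H3K36 and H3K79 is found at active genes, while methylation of H3K9 and H3K27 is found at silent ones. Trim28 (KAP1) is the scaffold that KRAB zinc finger proteins such as Zfp57 recruit to DNA, where it brings Setdb1 to lay down H3K9 methylation, and Zfp57 guards genomic imprints. In the growing oocyte and in the granulosa cells around it such enzymes take part in imprinting, silencing of repeats and cell cycle exit. A whole ovary mixes oocytes, granulosa, theca, luteal and stromal cells, so that fewer cells of a type and less RNA per cell cannot be told apart.

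Between 32158174 and 35485021 reads per library were counted on genes, which left the members well covered: their lowest count in any library was 129, for Hdac9. Defining ovarian markers had counts in every library except Insl3, a theca marker, which had at most 5 counts in a library and 0 in 2 of them, and the summed CPM of each of 13 marker lists overlapped between the groups. Among them the summed level of 10 oocyte genes ran from 389 to 476 CPM in CNTR and from 303 to 490 CPM in PAMH F3, and that of 5 genes of dividing cells from 299 to 505 CPM and from 400 to 522 CPM. The 8 granulosa genes summed to 3441 to 5870 CPM in CNTR and 4149 to 6001 CPM in PAMH F3, with 4 at an edgeR unadjusted p under 0.05 and a median log2 fold change of 0.12, and the 4 luteal genes to 1713 to 3128 CPM and 1171 to 1992 CPM, with 2 at such a p and a median of -0.28. The median was -0.30 over 3 tested theca genes and -0.72 over 5 adipocyte genes, with 0 at such a p in either list. The 5 genes listed for oviduct epithelium summed to between 2656 and 6542 CPM in every library. Those for adipocytes summed to 307 to 996 CPM in CNTR and 122 to 714 CPM in PAMH F3. How much oviduct or fat tissue each sample held was not measured. An edgeR unadjusted p under 0.05 was found for 7.64% of all tested genes, against 4 of 8 granulosa and 2 of 4 luteal genes. It was also found for 1 of 5 endothelium, 1 of 7 leukocyte and 1 of 5 oviduct epithelium genes, and for 0 in the remaining lists. In each of the 13 lists 0 genes were called. The part of any cell mixture in the values below was not tested. CNTR replicate 2 stood apart from the other libraries in its base composition: over all tested genes its levels went up by 0.31 on the log2 scale for each 10% of GC in a transcript, against -0.12 to 0.04 in the other 6 libraries. Where leaving out a library moved a member's log2 fold change given below by more than 1.5 times, the lowest or highest value so obtained is given beside it.

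Levels of different genes are given as TMM CPM per kilobase of merged exons, that is, counts scaled to library size and divided by the length of the gene's exons. On this scale the 48 members spanned 188-fold, and 41 of them lay above 4.67, the median of all tested genes. Trim28 was the most abundant member at 77.7 ± 4.1 CPM per kilobase (SD, n = 7 libraries), and its 7 libraries did not overlap with those of any other member. Zfp57 stood at 13.7 ± 1.3 CPM per kilobase. Among the 14 deacetylases the highest was Hdac2, a class I enzyme of the Sin3 and NuRD complexes, at 39.1 ± 3.0. It was followed by Hdac3, the catalytic subunit of the NCoR complex, at 30.9 ± 1.2, and by Hdac11, the sole class IV enzyme, at 15.0 ± 2.7 CPM per kilobase. Libraries of Hdac2 and Hdac3 did not overlap, whereas those of Hdac11 overlapped with the next in order, Sirt2. The lowest deacetylases were Hdac4 at 4.09 ± 0.31 and Hdac9 at 0.413 ± 0.090 CPM per kilobase, both of class IIa, whose members shuttle between nucleus and cytoplasm. Hdac9 ran from 0.272 to 0.555 over the 7 libraries, below every other member.

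Among the 20 methyltransferases Ehmt2 (G9a), which dimethylates H3K9, was highest at 29.9 ± 6.0 CPM per kilobase. Suz12, a non-catalytic subunit of Polycomb repressive complex 2, followed at 22.1 ± 1.7 and Setdb1, which works with Trim28 and trimethylates H3K9, at 17.0 ± 1.1. Libraries of Ehmt2 and Suz12 did not overlap, while from Suz12 down to Kmt2c at 7.30 each gene overlapped with the next in order. At the foot of the class were Suv39h2, an H3K9 methyltransferase, at 2.80 ± 0.28 and Setdb2, a relative of Setdb1, at 2.31 ± 0.33, which overlapped with each other. The most abundant of the 12 demethylases was Kdm1a (LSD1), a flavin-dependent H3K4 demethylase, at 24.8 ± 1.1 CPM per kilobase. Next came Kdm4a at 20.3 ± 1.9 and Kdm3a at 13.4 ± 1.4, which act on H3K9 and, for Kdm4a, also on H3K36. Kdm1a and Kdm4a overlapped, and Kdm4a and Kdm3a did not. The lowest were Kdm6b, which removes H3K27 methylation, at 6.20 ± 1.06 and Kdm2b, a CXXC protein that binds CpG islands, at 1.56 ± 0.12 CPM per kilobase. The class medians were close, at 10.9 for methyltransferases, 9.15 for demethylases and 8.67 for deacetylases. This order depends on the length used: with the median length of a gene's transcripts in place of merged exons, the 3 highest became Nsd1, Kmt2d and Suz12 among methyltransferases, Kdm1a, Kdm3a and Kdm2a among demethylases, and Hdac2, Hdac5 and Hdac3 among deacetylases. The low place of Hdac4 rests on merged exons too: these are 15813 bases long, while the median length of its transcripts is 893.5 bases.

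**Figure D1:**
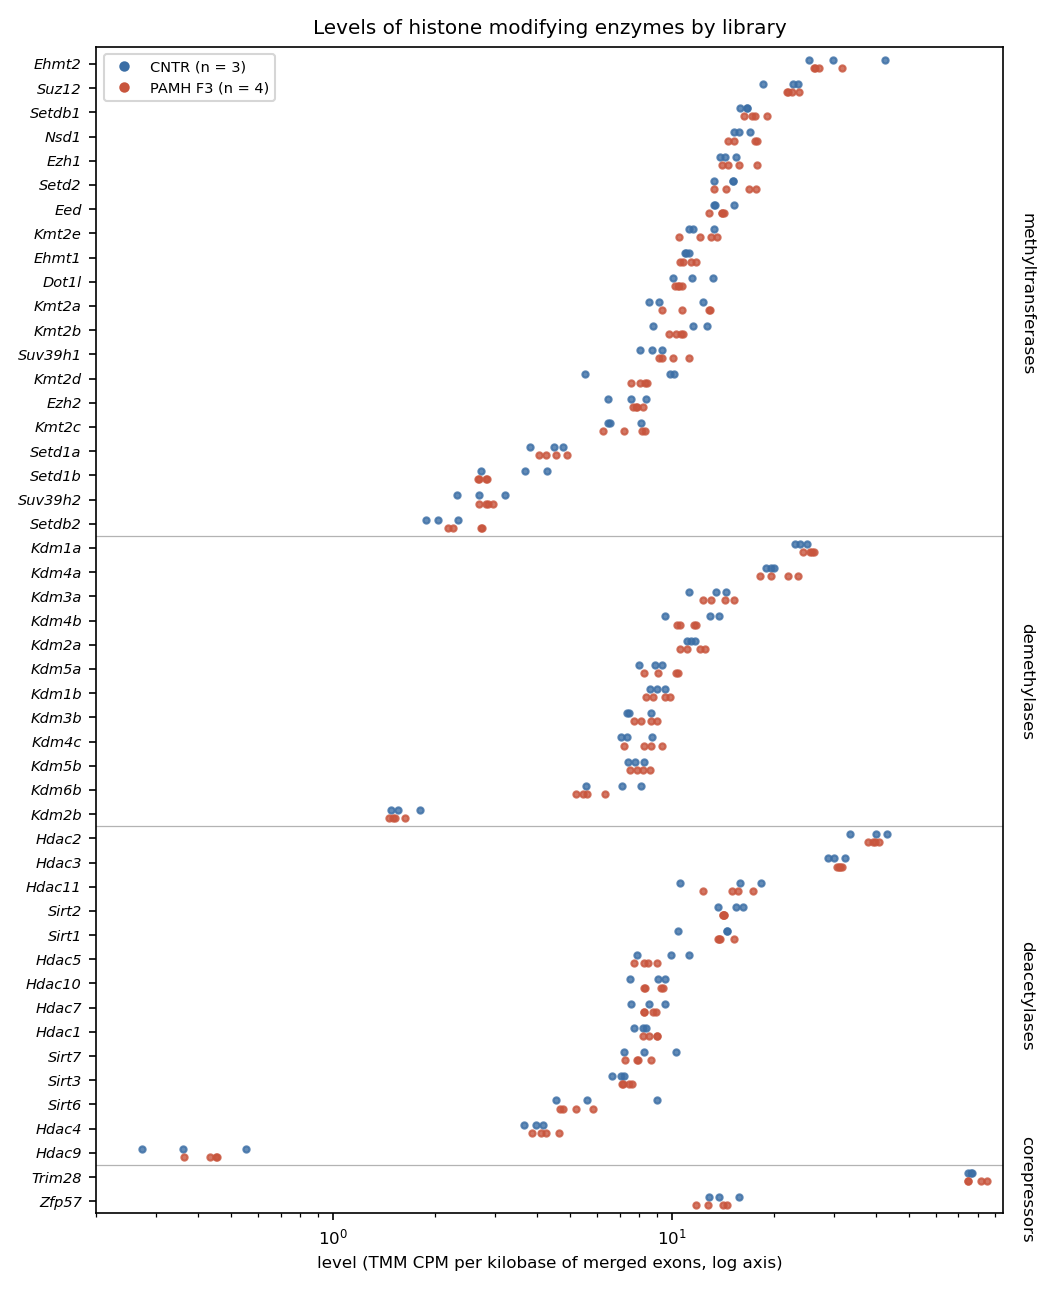
Level of each member in each library, in TMM CPM per kilobase of merged exons on a log axis, with members ordered within their class and a point for each CNTR (blue, n = 3) and PAMH F3 (red, n = 4) library. Trim28 lies at the right with a mean of 77.7 and Hdac9 at the left with 0.413, and the points of both groups overlap for every member.

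For some members the level is uncertain because reads of 50 bases cannot always be assigned. Of the 50-base stretches of the longest Hdac1 transcript, 58.7% occurred in another gene, nearly all in the processed pseudogene Gm10093, and reads matching both places were not counted. For Setd1a 54.0% lay in exons shared with the overlapping gene Gm49388, which had 0 counts in all libraries, and reads falling on both genes were likewise dropped. The corresponding shares were 12.5% for Kdm2b, 5.43% for Setdb1, 2.48% for Sirt7 and 1.71% for Kmt2d, and at most 0.23% for each of the other 42 members. The levels of Hdac1, Setd1a and Kdm2b given here are thus undercounted by an unknown amount, in CNTR and PAMH F3 libraries alike. Some members overlap a gene on the opposite strand, such as Kmt2e with Srpk2, Setdb1 with Cers2 and Kdm2b with Rnf34. The strand setting of the counting is not given in the sources used here, so it is not known how their reads were separated. Without strand, reads on exons of both genes would be dropped. These overlaps are of whole genes, and whether their exons overlap was not examined.

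Most members share a kind of start site that their names did not select. RefSeq windows on GRCm38.p6 (the mm10 assembly), from 250 bases before a gene's start to 50 bases after it, were matched by symbol for 36 of the 48 members. Of these, 31 (86.1%) were rich in CpG, defined as a GC content above 50% with an observed to expected CpG ratio above 0.6, compared with 59.2% of the 13283 tested genes with a window and 33.3% of all 32851 windows. The median number of CpG pairs per window was 25 in members, 19 in tested genes and 7 in all windows. On either strand, the letters GGGCGG occurred in 63.9% of member windows (58.6% of tested genes, 35.7% of all windows), CCGGAA in 22.2% (24.4% and 14.9%), the NRF1 motif in 19.4% (8.82% and 4.60%) and TATAAA in 5.56% (8.19% and 13.6%). The 250 bases before the start are printed for the most and the least abundant members, for the most abundant deacetylase and for Kmt2a, which is described below. They lie at chr7:13023902-13024151 on the plus strand (Trim28), chr10:36974294-36974543 on the plus strand (Hdac2), chr9:44881290-44881539 on the minus strand (Kmt2a) and chr12:34917096-34917345 on the minus strand (Hdac9), each read 5′ to 3′ along the gene, with every CpG in capitals.
Trim28: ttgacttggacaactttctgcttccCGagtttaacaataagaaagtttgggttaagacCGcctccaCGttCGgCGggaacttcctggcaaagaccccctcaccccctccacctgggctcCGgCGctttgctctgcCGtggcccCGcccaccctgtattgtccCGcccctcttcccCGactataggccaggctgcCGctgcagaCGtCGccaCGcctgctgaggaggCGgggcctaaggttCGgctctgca
Hdac2: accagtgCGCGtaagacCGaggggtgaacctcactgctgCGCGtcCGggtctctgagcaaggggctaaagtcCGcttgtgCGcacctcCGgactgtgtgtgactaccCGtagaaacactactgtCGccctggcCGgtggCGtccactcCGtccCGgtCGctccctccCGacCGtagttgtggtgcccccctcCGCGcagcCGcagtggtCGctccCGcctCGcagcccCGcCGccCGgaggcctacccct
Kmt2a: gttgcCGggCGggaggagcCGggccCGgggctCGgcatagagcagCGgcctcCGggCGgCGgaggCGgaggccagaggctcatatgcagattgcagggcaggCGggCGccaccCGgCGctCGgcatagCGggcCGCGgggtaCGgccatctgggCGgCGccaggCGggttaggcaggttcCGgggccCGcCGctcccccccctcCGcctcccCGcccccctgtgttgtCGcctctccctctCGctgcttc
Hdac9: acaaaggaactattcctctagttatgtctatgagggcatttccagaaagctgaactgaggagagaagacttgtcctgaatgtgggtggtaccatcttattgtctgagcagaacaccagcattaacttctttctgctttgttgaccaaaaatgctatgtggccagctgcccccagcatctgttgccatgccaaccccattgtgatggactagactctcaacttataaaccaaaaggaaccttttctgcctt
The stretches of Trim28, Hdac2 and Kmt2a hold 17, 27 and 29 CpG pairs, while that of Hdac9 holds 0 and has the letters TATAAA near its end. The bases after this Hdac9 start were not found in any GENCODE M21 transcript of the gene, so the start that RefSeq gives may not be the one used in ovary.

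In the comparison of PAMH F3 with CNTR ovaries, no member of any class passed the test. With the threshold at an adjusted p of 0.05, edgeR's quasi-likelihood test with 2 surrogate variables, covariates estimated from the counts, called 0 of the 48 members, against 0 of all 18779 genes (0.0%), and DESeq2 with the same surrogate variables called 0 members and 0.58% of all genes. The members' edgeR adjusted p ran from 0.567 to 0.999. Unadjusted p values under 0.05 were found for 2 members (4.17%) and for 7.64% of all genes, so the members' share was not above the background. They were Kmt2a, higher in PAMH F3 as were 3.75% of all genes, and Setd1b, lower as were 3.89%. DESeq2 gave the same 2 members, beside 5.82% of all genes. The CPM of PAMH F3 and CNTR libraries overlapped for every member, that is, 0 of 48 were separate, compared with 4.25% of all genes (1.85% higher in PAMH F3 and 2.4% lower). The smallest exact permutation p (two-sided, on mean CPM) over the members was 0.0857, for Setd1b and Kdm1a, where 0.0286 is the smallest that 3 against 4 libraries can give. Log2 fold changes, PAMH F3 over CNTR, ran from -0.22 to 0.22 with a median of 0.03 (0.00 over all genes), and 34 members (70.8%) had a value above 0, as did 51.7% of all genes. Libraries, not members, are the replicates here, and members share them. In the fit with 2 surrogate variables the 95% interval lay within 0.5 of 0 on the log2 scale, a 1.41-fold difference, for 47 members. It lay within 0.25, a 1.19-fold difference, for 32. The exception at 0.5 was Setdb2, named here after its values were seen, with an interval from -0.13 to 0.52. The median SE of the log2 fold change in this fit was 0.07 over the members and 0.12 over all genes. With 0 surrogate variables the SE of every member was larger, for example 0.215 against 0.096 for Sirt6 and 0.180 against 0.055 for Hdac11. These bounds therefore hold only for the fit with 2 surrogate variables.

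The count of members with a small unadjusted p depended on the libraries. Without CNTR replicate 1 it was 16 (33.3%; 17.0% of all genes), 5 higher and 11 lower in PAMH F3, with a smallest edgeR adjusted p of 0.060, and 0.204% of all genes were called. Without PAMH F3 replicate 1 it was 6 (12.5%, beside 10.6% of all genes), with 0.199% of all genes called. Without PAMH F3 replicate 2 it was 1, a setting for which the share of all genes with such a p was not computed. With a GC content and length correction in place of the surrogate variables it was 2, Setd1b and Hdac7, the latter named after its values were seen (4.37% of all genes). With 0 surrogate variables it was 1, Setd1b (3.95% of all genes), and then 10, 0 and 1 when CNTR replicates 1, 2 and 3 were left out in turn, beside 8.56%, 2.76% and 6.37% of all genes. Under each of these settings 0 members were called at the adjusted threshold.

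**Figure D2:**
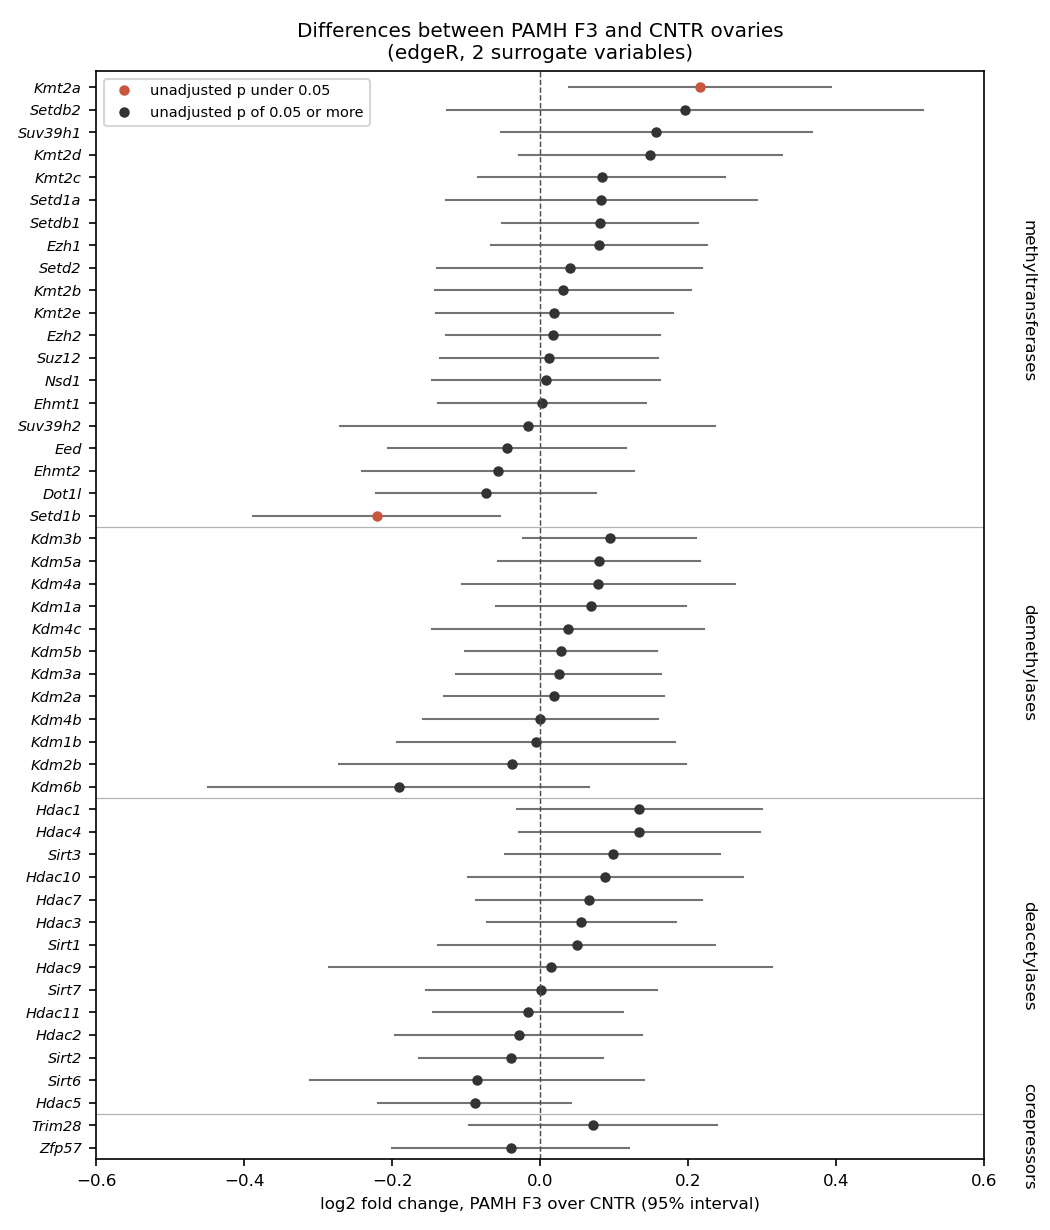
Log2 fold change of each member, PAMH F3 over CNTR, with its 95% interval from edgeR's fit with 2 surrogate variables, grouped by class. Kmt2a at 0.22 and Setd1b at -0.22 (red) have an unadjusted p under 0.05, the 2 members whose intervals leave out 0, and every other interval crosses 0.

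Among the methyltransferases 15 members had a log2 fold change above 0 and 5 below, with a median of 0.03. The 7 members grouped under H3K4 held both members with a small p, in opposite directions. Setd1b (ENSMUSG00000038384, chr5:123142193-123168629, plus strand), catalytic subunit of a SET1/COMPASS complex that trimethylates H3K4 at promoters, stood at 33.0, 51.4 and 44.3 CPM in CNTR replicates 1, 2 and 3 and at 32.6, 32.3, 34.3 and 34.1 CPM in PAMH F3 replicates 1 to 4. The PAMH F3 libraries lay close together, CNTR replicates 2 and 3 lay above all of them, and CNTR replicate 1 lay among them. The log2 fold change was -0.22 (SE 0.07; 95% interval -0.39 to -0.05; edgeR unadjusted p = 0.0164, adjusted p = 0.567), and an exact permutation test on CPM gave p = 0.0857. Its value moved to -0.52 without CNTR replicate 1, to -0.16 without CNTR replicate 2 and to -0.37 with 0 surrogate variables, and the GC and length correction gave -0.19. Setd1b has a GC content of 59.1%, near the top of the members' range of 40.8% to 60.0%.

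Kmt2a (MLL1; ENSMUSG00000002028, chr9:44803355-44881296, minus strand), an H3K4 methyltransferase that maintains Hox gene expression, stood at 142, 153 and 206 CPM in CNTR and at 216, 178, 156 and 214 CPM in PAMH F3. CNTR replicate 3 lay among the higher PAMH F3 libraries, and PAMH F3 replicate 3 lay close to CNTR replicate 2. The log2 fold change was 0.22 (SE 0.08; 95% interval 0.04 to 0.39; edgeR unadjusted p = 0.0230, adjusted p = 0.599), the exact permutation p was 0.286, and without CNTR replicate 1 the log2 fold change was 0.08. Kmt2d (MLL4), which with Kmt2c monomethylates H3K4 at enhancers, stood at 109.96, 196 and 202 CPM in CNTR and at 166, 150.4, 161 and 168 CPM in PAMH F3. All PAMH F3 libraries lay in the gap between CNTR replicate 1 and the other CNTR libraries. Its log2 fold change of 0.15 (SE 0.08; 95% interval -0.03 to 0.33) had an edgeR adjusted p of 0.710 and turned to -0.07 with 0 surrogate variables and to -0.31 without CNTR replicate 1, and was 0.23 without PAMH F3 replicate 2, so no direction can be given for it. The other 4 members of this group, Kmt2b, Kmt2c, Kmt2e and Setd1a, lay between these values and overlapped between the groups.

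The 4 genes of Polycomb repressive complex 2, which methylates H3K27, had log2 fold changes between -0.04 and 0.08. Ezh2, its main catalytic subunit in dividing cells, stood at 56.1, 43.3 and 50.7 CPM in CNTR and at 52.4, 52.5, 51.2 and 54.9 CPM in PAMH F3, a log2 fold change of 0.02 (SE 0.06; 95% interval -0.13 to 0.16) that ran from -0.03 without CNTR replicate 2 to 0.17 without CNTR replicate 1. The CNTR libraries spread on both sides of the PAMH F3 libraries. Ezh1, the alternative catalytic subunit found also in resting cells, stood at 106, 103 and 115 CPM in CNTR and at 117, 109, 104 and 132 CPM in PAMH F3, a log2 fold change of 0.08 (SE 0.06; 95% interval -0.07 to 0.23), or 0.05 without PAMH F3 replicate 4. PAMH F3 replicate 4 had the highest value and the other libraries were intermingled. Per kilobase, Ezh1 exceeded Ezh2 in all 7 libraries, by 1.70 to 2.13 times in CNTR and by 1.83 to 2.16 times in PAMH F3. Eed, the subunit that reads H3K27 methylation, was lower in PAMH F3 replicate 1, at 49.3 CPM, than in replicates 2 to 4, at 53.8 to 54.5 CPM, which lay inside the CNTR range of 50.9 to 58.2 CPM.

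The 6 H3K9 methyltransferases had log2 fold changes between -0.06 and 0.20. Suv39h1, which trimethylates H3K9 in constitutive heterochromatin, stood at 49.4, 42.5 and 45.9 CPM in CNTR and at 48.1, 49.2, 53.1 and 59.0 CPM in PAMH F3. PAMH F3 replicates 3 and 4 lay above all CNTR libraries, and PAMH F3 replicates 1 and 2 lay just below CNTR replicate 1. The log2 fold change was 0.16 (SE 0.09; 95% interval -0.05 to 0.37; edgeR adjusted p = 0.733), or 0.09 without PAMH F3 replicate 4 and 0.24 without CNTR replicate 1. Ehmt2 stood at 139.6, 233 and 163 CPM in CNTR and at 149, 144, 174 and 145 CPM in PAMH F3, so that CNTR replicate 2 alone exceeded every PAMH F3 library. Setd2 and Nsd1, which methylate H3K36, and Dot1l, the H3K79 methyltransferase, had log2 fold changes between -0.07 and 0.04.

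Neither the demethylases nor the deacetylases had a member with an unadjusted p under 0.05. Of the demethylases 9 had a log2 fold change above 0 and 3 below, with a median of 0.03 and a range from -0.19 to 0.09. Kdm6b (JMJD3; ENSMUSG00000018476, chr11:69398508-69413675, minus strand), an H3K27 demethylase induced in inflammation, had the largest difference of the class. It stood at 38.7, 56.3 and 49.4 CPM in CNTR and at 44.1, 37.9, 36.1 and 39.1 CPM in PAMH F3. CNTR replicates 2 and 3 lay above all PAMH F3 libraries, and CNTR replicate 1 lay between PAMH F3 replicates 2 and 4. The log2 fold change was -0.19 (SE 0.11; 95% interval -0.45 to 0.07; edgeR adjusted p = 0.737), or -0.43 without CNTR replicate 1, -0.12 without either CNTR replicate 2 or PAMH F3 replicate 3 and -0.11 after the GC and length correction. Kdm3b, an H3K9 demethylase, stood at 105, 104 and 122 CPM in CNTR and at 122, 114, 109 and 127 CPM in PAMH F3, and differed by 0.09 on the log2 scale (SE 0.05; 95% interval -0.02 to 0.21; edgeR adjusted p = 0.721), or by 0.06 without CNTR replicate 1. CNTR replicate 3 lay among the higher PAMH F3 libraries. Kdm5a, which removes H3K4 methylation, stood at 126, 113 and 133 CPM in CNTR and at 146, 129, 117 and 148 CPM in PAMH F3. Its PAMH F3 replicates 1 and 4 lay above all CNTR libraries, and the log2 fold change was 0.08 (SE 0.06; 95% interval -0.06 to 0.22), or 0.13 without PAMH F3 replicate 3 and 0.12 without CNTR replicate 1. Kdm1a stood at 129, 119 and 124 CPM in CNTR and at 132, 126, 134 and 136 CPM in PAMH F3, where PAMH F3 replicate 2 was the only library of its group below a CNTR library, and its log2 fold change was 0.07 (SE 0.05; 95% interval -0.06 to 0.20; exact permutation p = 0.0857), or 0.12 without CNTR replicate 1.

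Among the deacetylases 9 members lay above 0 and 5 below, with a median log2 fold change of 0.03 and a range from -0.09 to 0.13. Hdac1, the class I partner of Hdac2, stood at 26.7, 28.8 and 28.3 CPM in CNTR and at 28.2, 31.2, 31.1 and 29.5 CPM in PAMH F3. PAMH F3 replicate 1 lay inside the CNTR range and the other PAMH F3 libraries lay above it. This gave a log2 fold change of 0.13 (SE 0.07; 95% interval -0.03 to 0.30; edgeR adjusted p = 0.720), or 0.08 without CNTR replicate 1. Hdac2 stood at 193, 150.1 and 178 CPM in CNTR and at 169, 183, 175 and 177 CPM in PAMH F3, a log2 fold change of -0.03 (SE 0.07; 95% interval -0.20 to 0.14) that became 0.02 with 0 surrogate variables and ran from -0.08 without CNTR replicate 2 to 0.12 without CNTR replicate 1. The CNTR libraries lay on both sides of the PAMH F3 libraries, which were close together. Hdac4 stood at 57.9, 62.8 and 65.6 CPM in CNTR and at 61.2, 65.0, 67.0 and 73.3 CPM in PAMH F3, and differed by 0.13 on the log2 scale (SE 0.07; 95% interval -0.03 to 0.30; edgeR adjusted p = 0.714), or by 0.05 without CNTR replicate 1. Its PAMH F3 replicates 3 and 4 lay above all CNTR libraries. Hdac5, also of class IIa, stood at 69.2, 98.2 and 87.0 CPM in CNTR and at 67.6, 72.5, 79.1 and 74.5 CPM in PAMH F3, so that CNTR replicates 2 and 3 lay above every PAMH F3 library. Its log2 fold change of -0.09 (SE 0.06; 95% interval -0.22 to 0.04; edgeR adjusted p = 0.764) was -0.33 without CNTR replicate 1, -0.04 without CNTR replicate 2 and 0.00 after the GC and length correction.

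The 5 NAD-dependent sirtuins had log2 fold changes between -0.09 and 0.10. Sirt3, the mitochondrial member, stood at 39.7, 42.4 and 43.0 CPM in CNTR and at 42.6, 45.6, 42.9 and 44.6 CPM in PAMH F3, and differed by 0.10 on the log2 scale (SE 0.06; 95% interval -0.05 to 0.24; edgeR adjusted p = 0.764), or by 0.04 without CNTR replicate 1. Sirt1, a nuclear deacetylase tied to energy status, was at 81.3 CPM in PAMH F3 replicate 4 and at 73.1 to 74.1 CPM in its replicates 1 to 3, with 55.6 CPM in CNTR replicate 2 and 77.4 CPM in both other CNTR libraries. Hdac9, the scarcest member, stood at 8.14, 5.28 and 3.99 CPM in CNTR and at 6.60, 6.66, 6.36 and 5.33 CPM in PAMH F3, all of which lay inside the CNTR range.

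Of the corepressors, Trim28 (ENSMUSG00000005566) stood at 311, 318 and 316 CPM in CNTR and at 311, 311, 339 and 355 CPM in PAMH F3. PAMH F3 replicates 3 and 4 lay above all CNTR libraries and the other PAMH F3 libraries lay level with CNTR replicate 1. Trim28's log2 fold change was 0.07 (SE 0.07; 95% interval -0.10 to 0.24; edgeR adjusted p = 0.853), or 0.04 without PAMH F3 replicate 3 and 0.03 without PAMH F3 replicate 4. Zfp57 (ENSMUSG00000036036) stood at 52.2, 59.6 and 48.7 CPM in CNTR and at 44.7, 53.5, 55.1 and 48.5 CPM in PAMH F3, a log2 fold change of -0.04 (SE 0.07; 95% interval -0.20 to 0.12; edgeR adjusted p = 0.930), which ran from -0.09 without CNTR replicate 1 to 0.00 without PAMH F3 replicate 1.

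**Figure D3:**
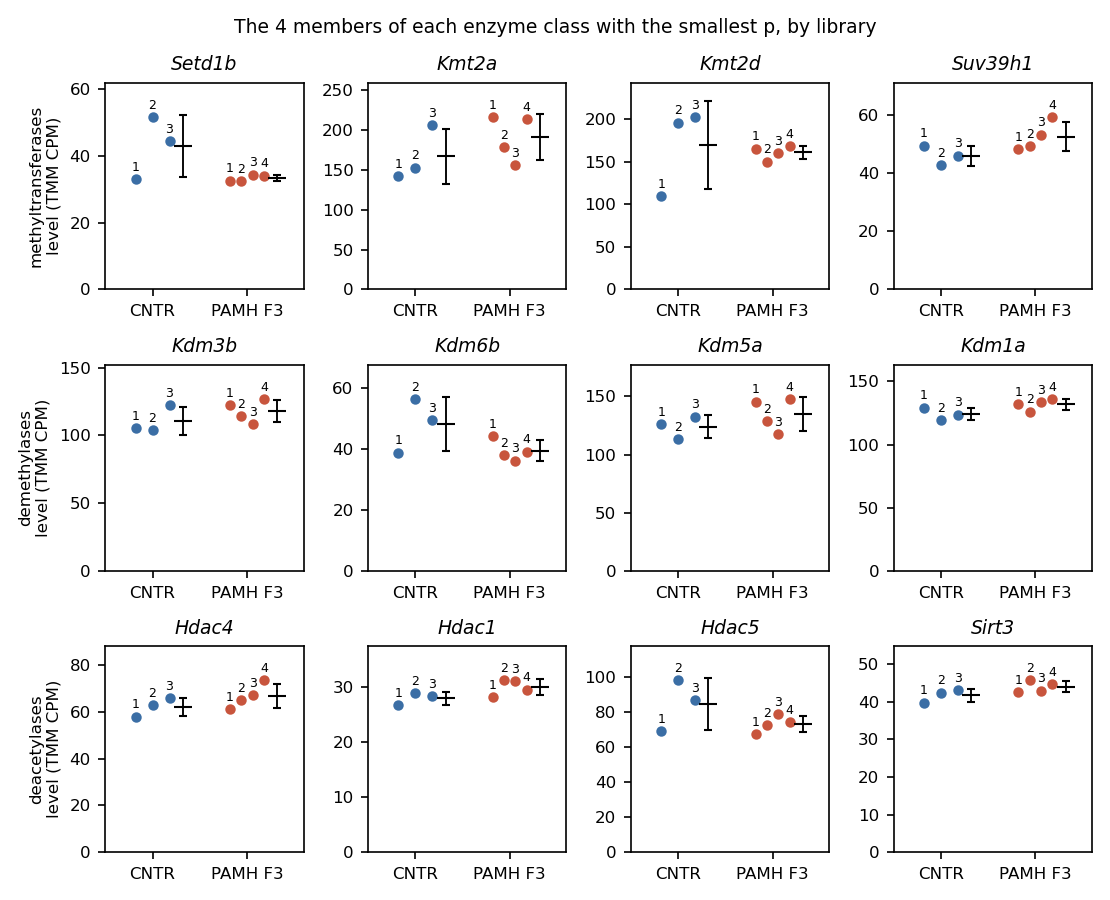
TMM CPM in each library for the 4 members of each enzyme class with the smallest p, with the replicate number above each point and the group mean and SD as bars to its right (CNTR n = 3, PAMH F3 n = 4, each axis from 0). In Setd1b, Kdm6b and Hdac5 CNTR replicates 2 and 3 lie above all PAMH F3 points while CNTR replicate 1 lies among them.

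Ratios between related members, taken per kilobase within a library, showed which paralog prevailed and how steadily. Hdac1 stood at 0.18 to 0.25 of Hdac2 in all libraries, with the uncertainty of the Hdac1 level given above. Suv39h1 exceeded Suv39h2 by 2.91 to 3.92 times, Setdb1 exceeded Setdb2 by 6.29 to 8.41 times, Kdm2a exceeded Kdm2b by 6.29 to 8.23 times and Kdm1a exceeded Kdm1b by 2.47 to 3.03 times. Ehmt1 stood at 0.265 to 0.444 of its partner Ehmt2, lowest in CNTR replicate 2. The order of Kmt2c and Kmt2d differed between libraries: their ratio ran from 0.668 in CNTR replicate 2 to 1.17 in CNTR replicate 1, with PAMH F3 libraries between 0.775 and 1.00. This rests on merged exon length: with the median transcript length the ratio ran from 0.124 to 0.218, so that Kmt2d exceeded Kmt2c in every library, and the ratio ran from 4.10 to 6.39 for Setd1a to Setd1b, from 6.73 to 8.26 for Kdm1a to Kdm1b and from 4.11 to 5.49 for Setdb1 to Setdb2. Of the 12 pairs examined, Setd1a to Setd1b was the pair whose groups did not overlap, at 1.12 to 1.39 in CNTR and 1.43 to 1.74 in PAMH F3, with the Setd1a level undercounted as given above. It was singled out after its values were seen and is given without a test.

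In CNTR replicates 1 and 2 the members' deviations went with their base composition. For each 10% of GC the members' own levels differed by 0.34 (log2) in CNTR replicate 2 and -0.17 in CNTR replicate 1, against -0.10 to 0.06 in the other libraries. CNTR replicate 2 was the highest of the 7 libraries for 15 members, with a median GC of 58.2%, and the lowest for 15 others, with a median GC of 44.1%, whereas it was highest for 25.1% and lowest for 22.1% of all genes. CNTR replicate 1 was the lowest for 16 members, with a median GC of 57.0%, and for 14.7% of all genes. For all 15 members with a GC content over 55%, among them Setd1b, Ehmt2, Kdm6b, Hdac5, Sirt6 and Dot1l, CNTR replicate 2 exceeded the mean of the other CNTR libraries, by a median of 1.25 times. For the 11 members under 45%, among them Suz12, Hdac2, Sirt1 and Ezh2, it lay below that mean in every case, with a median ratio of 0.861. PAMH F3 replicate 4 was the highest library for 15 members and the lowest for 0, whereas 18.1% and 14.5% of all genes had it as their highest and lowest library. The part of base composition in single differences between the groups was tested only through the correction given above.

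**Figure D4:**
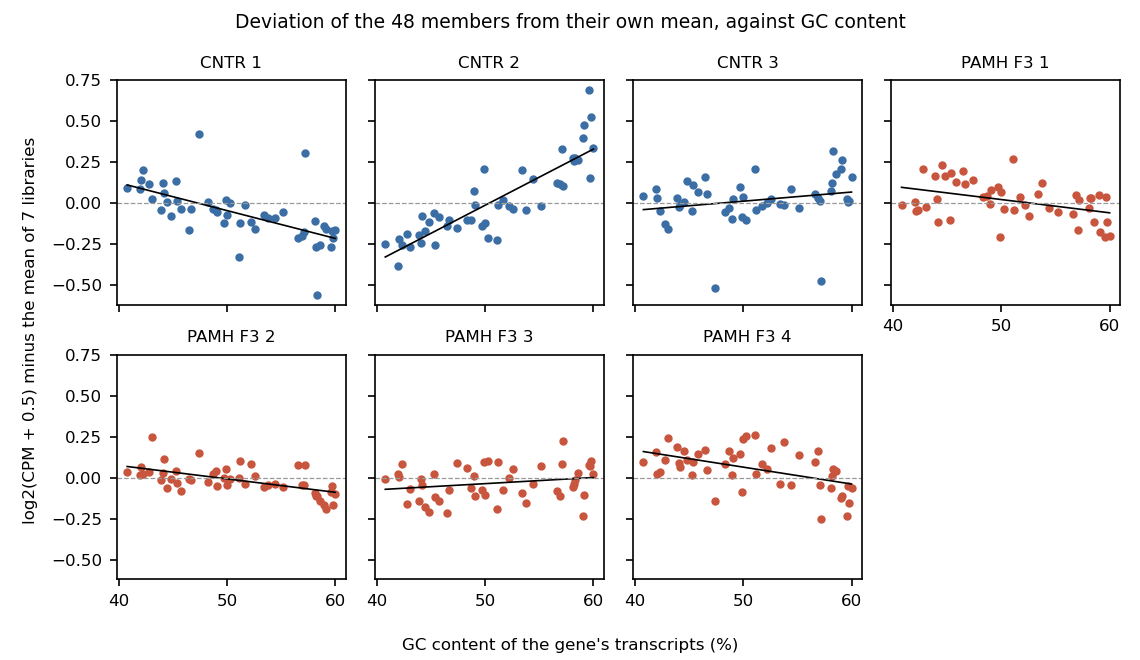
Each panel is a library and each point a member: its log2(CPM + 0.5) minus its mean over the 7 libraries, against the GC content of its transcripts in percent, with a least-squares line. The line climbs steeply in CNTR replicate 2, by 0.34 per 10% of GC, and slopes the other way in CNTR replicate 1, by -0.17.

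For most members the levels were also less spread among the PAMH F3 libraries than among the CNTR libraries. The median coefficient of variation of the members was 11.1% over 3 CNTR libraries and 6.80% over 4 PAMH F3 libraries, and it was larger in CNTR for 32 of 48 members (66.7%; 62.0% of all genes, whose medians were 14.6% and 11.5%). The highest library exceeded the lowest by more than 1.5 times for 8 members, named here after their values were seen: Kmt2a, Kdm6b, Setd1b, Ehmt2, Hdac11, Kmt2d, Sirt6 and Hdac9, of which Hdac9 alone exceeded 2 times. Sirt6, a chromatin-bound sirtuin, stood at 12.7, 25.1 and 15.7 CPM in CNTR and at 13.3, 14.5, 16.3 and 13.0 CPM in PAMH F3, so its spread came from CNTR replicate 2. Hdac11 stood at 70.4, 61.2 and 40.7 CPM in CNTR and at 57.8, 60.1, 66.5 and 47.6 CPM in PAMH F3, with its extremes in CNTR replicates 1 and 3. Its GC content is 57.2%, but CNTR replicate 2 was not its highest library, and what its spread went with was not tested. Summed over a class, the differences were small: methyltransferases came to 218 to 237 CPM per kilobase in CNTR and 221 to 244 in PAMH F3, demethylases to 127 to 134 and 125 to 142, and deacetylases to 171 to 178 and 168 to 177.

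The comparison was repeated for genes that work with the members. Of 101 other chromatin genes, listed as further family members, acetyltransferases, Polycomb, Trithorax and corepressor partners and heterochromatin proteins, 99 were tested, 0 were called by edgeR, and 5 had an unadjusted p under 0.05, 4 higher and 1 lower in PAMH F3. These were 5.05% of the list, below the 7.64% of all genes. Their median log2 fold change was 0.02. Setd5, a SET domain relative of the methyltransferases, stood at 169.7, 173 and 206 CPM in CNTR and at 212, 201, 187 and 231 CPM in PAMH F3, a log2 fold change of 0.19 (SE 0.05; edgeR adjusted p = 0.531). Tbl1xr1, a subunit of the NCoR complex that holds Hdac3, stood at 67.3, 60.5 and 73.7 CPM in CNTR and at 74.3, 76.5, 74.8 and 85.0 CPM in PAMH F3, with every PAMH F3 library above every CNTR library. Its log2 fold change was 0.19 (SE 0.06, edgeR adjusted p = 0.567). Its exact permutation p was 0.0286, the smallest the design allows, which follows from that separation and adds no further support. Phf1, a Polycomb accessory factor, had a log2 fold change of -0.15 (SE 0.07; edgeR adjusted p = 0.676). Among the 99 genes, the CPM of 3 did not overlap between the groups (3.03%; 4.25% of all genes), Tbl1xr1 and, named after their values were seen, Cbx2 (higher in PAMH F3) and Rbbp7 (lower).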

How the data were processed

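The authors sequenced poly(A) RNA of whole ovaries, a library for each mouse, with single reads of 50 bases from a stranded kit, mapped them to mm10 with STAR 2.5.3a and assigned those with a unique alignment to Ensembl genes with HTSeq 0.6.1p1 in union mode. The authors deposited raw counts per gene, without normalization, for 55487 identifiers, of which 55394 were matched to GENCODE M21 for names and positions. The 5 summary lines per library were left out. Totals on genes are given in the report.

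Counts were scaled by TMM over all gene rows and tested with edgeR 4.0.16 in R 4.3.3 (quasi-likelihood F test, filterByExpr with a minimum count of 10, 18779 genes), with 2 surrogate variables from svaseq in sva 3.50.0, as num.sv estimated, which left 3 residual degrees of freedom. Benjamini-Hochberg adjustment ran over all genes tested, and an adjusted p of 0.05 was the threshold. Whether mice shared a litter is not known, so p values measure the spread between these libraries. Exact permutation tests used the 35 divisions of 7 libraries into 3 and 4. The scripts were tested on simulated data. Pairs of libraries all differed beyond counting noise, so none was a duplicate. The libraries' replicate numbers did not pair them.

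Members and gene lists were chosen with earlier results of these data known. Log2 fold changes are stated singly for the 4 members of each class with the smallest p, for any member whose groups do not overlap in CPM, for Trim28 and Zfp57, and for Ezh1 with Ezh2 and Hdac1 with Hdac2. Levels are stated singly for the 3 highest and 2 lowest members of each class and for members with an outlying library, and of the other chromatin genes the 2 with the smallest p in each direction are named, except a gene that is not reported here. Alternatives changed the number of surrogate variables, the tool (DESeq2 1.42.0), the size factors, the filter, a GC and length correction, a replicate block and the libraries used.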

Additional observations from a re-analysis of the deposited data

Results flagged for a closer look

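In each PAMH F3 group of 4 libraries, the gap of the highest or lowest library to the rest was set against the whole range for all 48 members, and 3 members passed Dixon's 95% critical value for 4 samples, where chance gives about 1 in 20. The level of Eed in PAMH F3 replicate 1 was 49.3 CPM, below the other 3 libraries at 53.8 to 54.5 CPM. The level of Ehmt2 in PAMH F3 replicate 3 was 174 CPM, above the others at 144 to 149 CPM. The level of Sirt1 in PAMH F3 replicate 4 was 81.3 CPM, above the others at 73.1 to 74.1 CPM. The flagged value of Ehmt2 lay inside the CNTR range, while the flagged values of Eed and Sirt1 lay just outside it.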

How the results depend on the processing

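Over 21 alternatives the number of members called at an adjusted p of at most 0.05 was 0 throughout, with a smallest adjusted p of 0.060, and the median log2 fold changes of the 3 classes stayed between 0.00 and 0.09. Of 357 log2 fold changes of the 17 members named with one, 337 kept their direction and 20 reversed, and 12 of the 17 reversed under none. Among the alternatives, the setting with 2 surrogate variables was the main fit itself, so its 17 values could not reverse. Changing the filter on low counts also left the values of all 17 as they were. All genes called numbered 109 in DESeq2 with the same surrogate variables, 6 in DESeq2 with 0, 8 with no filter on low counts and 0 to 39 when a library was left out (39 without CNTR replicate 1, 37 without PAMH F3 replicate 1). Members with an unadjusted p under 0.05 numbered 1 with 0 or 1 surrogate variables, in DESeq2 with 0 and with the replicate block, and 1 to 16 when a library was left out. Where no share of all genes with such a p is given in this report, it was not computed. With 0 surrogate variables and CNTR replicates 1, 2 or 3 left out, an alternative chosen after seeing the data, they numbered 10, 0 and 1.

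The log2 fold change of Ezh2 ranged from -0.0288 to 0.17 over the left-out libraries and was -0.0178 with 0 surrogate variables and without CNTR replicate 2. That of Hdac2 was 0.0194 with 0 and 0.0183 with 1 surrogate variable, 0.021 in DESeq2 with 0 and 0.0232 with the replicate block, ranged from -0.0845 to 0.12 over the left-out libraries, and with 0 surrogate variables was 0.10 without CNTR replicate 1 and 0.0387 without CNTR replicate 3. Hdac5 was 0.0036 after the GC and length correction. Kmt2d was -0.0722 with 0 and -0.0747 with 1 surrogate variable, -0.0702 in DESeq2 with 0, -0.045 with the replicate block, -0.31 to 0.23 over the left-out libraries, and -0.30 with 0 surrogate variables and without CNTR replicate 1. Zfp57 was 0.0008 with 0 surrogate variables and without CNTR replicate 2. The cause was not tested. Libraries with the same replicate number did not deviate together (correlations of 0.096, 0.096 and -0.248), so the replicate block shares only a number. Single-read depth limits Hdac9 most, at 129 counts in its lowest library.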
